A study of Mus musculus with 16 samples.

Results

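*Parm1* and *Sphkap* were followed through the pituitary glands of 16 female mice. Both genes were chosen by name, from gene names shown for the arcuate nucleus of the same mouse model, with earlier results of these pituitary data known. They are 2 of the 17362 genes listed and 2 of the 14345 genes tested, which are those with a mean value of at least 1 over the 16 mice. Each library came from 1 gland, and 4 mice made up each combination of genotype and diet. Mutants, called *Esr1*Nkx2.1-cre, carried loxP-flanked alleles of *Esr1*, the gene for oestrogen receptor alpha, and a Cre recombinase driven by *Nkx2-1*. Controls of this cross carry the floxed alleles without Cre in the study, so that both genotypes share them; the sample labels themselves say only that these mice are controls. The colony was kept on a mixed background of CD-1 and 129P2 mice. Females were taken at 27 weeks of age and had eaten either standard chow (SD) or, for 17 weeks, a high-fat diet (HFD). *Nkx2-1* marks parts of the ventral forebrain, the thyroid, the lung and the posterior pituitary lobe, so that the deletion is not designed to reach every cell of the gland, whereas bulk RNA comes from all of them. In such RNA, fewer cells of a type and less RNA per cell cannot be told apart.

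*Sphkap* encodes an A-kinase anchoring protein that was first described as a partner of sphingosine kinase 1. Anchoring proteins hold protein kinase A (PKA), the main effector of cyclic AMP, at chosen places in the cell. SPHKAP prefers type I regulatory subunits, and in neurons it sits at junctions between the endoplasmic reticulum and the plasma membrane together with VAP proteins. *Parm1* encodes a glycosylated, mucin-like membrane protein that was found as an androgen-regulated product of the prostate. Cyclic AMP is the second messenger of several hypothalamic releasing hormones and of dopamine in pituitary cells.

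*Parm1* (ENSMUSG00000034981) spans chromosome 5, 91517615 to 91626894, on the plus strand of GRCm38, with 1 annotated transcript of 5068 bp in 4 exons. *Sphkap* (ENSMUSG00000026163) spans chromosome 1, 83254139 to 83408200, on the minus strand. It has 5 annotated transcripts, of which 2 are protein coding, 8154 bp and 5888 bp long. No other gene overlaps *Parm1*, and the interval of *Sphkap* also holds the processed pseudogene *Gm6374* on the other strand and the unclassified transcript *Gm37517* on its own strand. The use of strand in the authors' quantification is not given in the sources used here. No other gene shared 100 bp of sequence with either gene at 90% identity.

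The sequence before each start site is shown because the deleted gene encodes a DNA-binding receptor and because *Sphkap* belongs to the cyclic AMP pathway. Promoter windows of 250 bases before the start were taken from RefSeq (GRCm38.p6). The annotated GENCODE transcript of *Parm1* begins upstream of the RefSeq start. The stretch of *Parm1* printed here therefore ends just before that transcript's first base and covers 165 bases, chr5:91517450-91517614 on the plus strand. The motif search and the GC content used the full window of 250 bases, the rest of which lies within that transcript and is not printed. For *Sphkap*, 30 bases around each motif match are printed from the minus strand, chr1:83408214-83408243 and chr1:83408322-83408351. Capitals mark the matched letters.
Parm1, upstream: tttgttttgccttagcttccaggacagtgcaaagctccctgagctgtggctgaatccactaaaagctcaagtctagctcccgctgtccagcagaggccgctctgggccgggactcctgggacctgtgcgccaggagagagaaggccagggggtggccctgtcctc
Sphkap, oestrogen response half-site: attaggctgaagGGTCAagtccagccagca
Sphkap, GC box: agagaaagcaagGGGCGGgactggactaag

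In *Sphkap*, the half-site GGTCA of an oestrogen response element lay at bases -31 to -27 from the start, and the GC box GGGCGG at -139 to -134. Both strands of all 32817 windows of the same length were searched. The half-site was found in 35.2% of them and the GC box in 32.7%, so that neither match is rare. The full oestrogen response element GGTCANNNTGACC, present in 0.064% of windows, was in neither promoter. Neither held the cyclic AMP response element TGACGTCA (1.55% of windows), its half-site TGACG (17.7%) or TATAAA (12.4%). The *Parm1* window held 0 matches to any of these motifs. Full elements contain their half-sites, so those searches overlap. It was GC rich, at 65.2% G and C, against 57.6% for *Sphkap* and a median of 52.4% over all windows.

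Measured values are a normalised signal per gene and mouse, per unit of transcript length, and they summed to between 908897 and 1335782 per mouse. From 1457 genes with 1 transcript, 90 to 143 low values per library were used to fit a step taken as 1 read. The step and the fragment length, 150 to 370, were chosen to bring most of these values near whole multiples. With that choice, 84.4% to 94.4% of them, by library, lay within 0.15 reads of a whole number. This share was maximised by the fit, so it does not test the step. By that fitted step *Parm1*, which has 1 transcript, would rest on 718 to 2634 reads per library, and counting alone would give an error of 1.95% to 3.73% of the value. Spread between mice of a group was wider, with an SD of 13.5% to 32.8% of the mean in 3 groups and 4% in mutants on HFD. No such depth can be read for *Sphkap*, which has several transcripts. For tests, log2(value + 0.5) was fitted with limma across the 14345 genes, and adjusted p-values are Benjamini-Hochberg values over all of them. Single genes were also compared by two-sided exact permutation tests, for which 4 mice against 4 give a smallest possible p of 0.0286. Nothing in the labels says that the mice of a group were independent litters, and p-values measure the spread between these mice.

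*Esr1*, the deleted gene, averaged 38.9 ± 7.32 (SD, n = 4) in controls and 18.6 ± 5.77 in mutants on SD, a log2 difference of -1.09 ± 0.25 (SE; limma, adjusted p = 0.0409). On HFD the averages were 37.3 ± 9.29 and 29.0 ± 5.53, a difference of -0.34 that did not pass (limma, adjusted p = 0.696). The SD call was lost in 10 of the 16 fits that left out 1 mouse, with an adjusted p of up to 0.12 without P358. It passed in 6 of 9 other settings planned for it (adjusted p up to 0.0636). Markers of lactotrophs, somatotrophs, corticotrophs, gonadotrophs and thyrotrophs were present in every mouse. Mice P357 (mutant, SD) and P392 (control, HFD) stood apart from the other 14. Their melanotroph markers (*Pomc*, *Pax7*, *Pcsk2* and *Oacyl*) had a mean log2 level of 3.66 and 5.18, against 6.71 to 8.23 in the other 14 mice. Their pituicyte markers (*Rax*, *Lhx2*, *Nkx2-1*, *Scn7a* and *Col25a1*) were at 0.274 and 0.305, against 1.48 to 2.18. Hypothalamic neuron markers, 5 of 6 listed, were at 1.14 and 1.51, against 1.99 to 3.23. Mitochondrial genes summed to 119409 in P357 and to between 32247 and 49368 in the others. P392 also had endothelial and pericyte marker sums of 183 and 135. In the other controls these were 94.3 to 123 and 27.5 to 43.9, and in mutants 149 to 206 and 70.1 to 124. The part of these levels in results without P392 was not tested. Results for the members, and the counts called in each gene list, are therefore given with and without this pair of mice. *Sphkap* itself was also extreme in both, so that leaving them out is not independent of its values.

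*Parm1* was a gene of middling level, and *Sphkap* was well expressed. Over the 16 mice *Parm1* averaged 19.1 ± 4.47 and *Sphkap* 41.0 ± 9.65, which placed them above 60.8% and 81.1% of the tested genes in level per length. *Sphkap* exceeded *Parm1* in all 4 group means. Within groups, the SD of the log2 level was 0.317 for *Parm1* and 0.336 for *Sphkap*, against a median of 0.26 over all tested genes.

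In control mice on SD, *Parm1* was at 17.67 in P356, 29.16 in P358, 23.06 in P359 and 21.92 in P383. Controls on HFD had 15.22 in P385, 15.24 in P390, 19.17 in P391 and 14.35 in P392. All of these except P391 were below every control on SD, and P391 was above P356 alone. Mutants on SD had 9.43 in P357, 19.88 in P381, 16.68 in P382 and 22.31 in P384. Mutants on HFD had 20.65 in P339, 21.59 in P341, 20.16 in P387 and 19.66 in P388. These last mice lay closest together of all groups, with an SD of 4% of the mean, whereas mutants on SD spread over 32.8% of theirs, mainly through P357. From highest to lowest, the means were 22.95 ± 4.745 (SD, n = 4) in controls on SD, 20.52 ± 0.8211 in mutants on HFD, 17.08 ± 5.594 in mutants on SD and 16 ± 2.155 in controls on HFD. Neighbouring groups in that order overlapped.

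**Figure D1:**
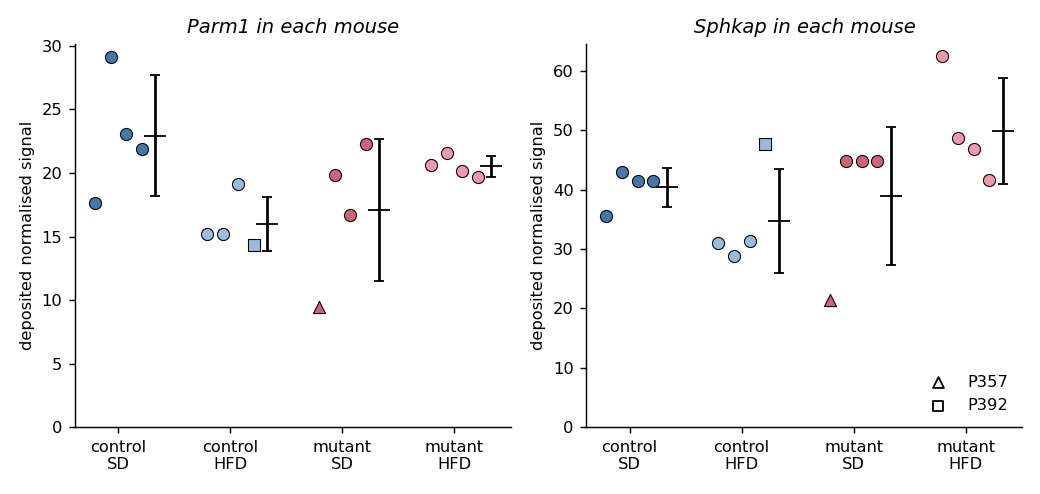
*Parm1* (left) and *Sphkap* (right) in each mouse, as the deposited normalised signal from 0 upwards, in the 4 groups of genotype and diet. Points are mice, bars are the mean ± SD of 4 mice, a triangle is P357 and a square P392. *Parm1* does not overlap between control and mutant mice on HFD, and *Sphkap* sits at 21.5 in P357 and 47.72 in P392, far from the other mice of their groups.

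On HFD, every mutant had more *Parm1* than every control, 19.66 to 21.59 against 14.35 to 19.17, and the means differed by a ratio of 1.28. The exact permutation p was 0.0286, the smallest that 4 against 4 can give. Of all tested genes, 5.3% likewise had groups that did not overlap in this comparison. With limma the difference was 0.36 ± 0.21 on the log2 scale (95% interval -0.09 to 0.80), and it did not pass (adjusted p = 0.598). No gene did in this comparison, with 0% of the 14345 genes called, while 1461 had an unadjusted p under 0.05. Without P357 and P392 the *Parm1* groups on HFD still did not overlap, which held for 19.7% of genes in those mice, and the difference was 0.31 (limma, adjusted p = 0.247).

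On SD the order was the other way. *Parm1* averaged 0.744 of the control mean in mutants, a log2 difference of -0.46 ± 0.21 (95% interval -0.90 to -0.02) with an unadjusted limma p of 0.0425 and an adjusted p of 0.235. The groups overlapped (exact permutation p = 0.171). In the same comparison 1.84% of tested genes were called and 10.6% had groups without overlap. Leaving out P357 alone brought the difference to -0.21, more than 2 times smaller. Mouse P357 had the lowest *Parm1* of all 16, beside its low melanotroph and pituicyte markers and its high mitochondrial sum. With the level of those markers as a covariate the difference was -0.26 (limma, adjusted p = 0.453), and the part of the mitochondrial sum was not tested.

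The diet difference in *Parm1* had opposite signs in the genotypes, and neither passed across all genes. In controls it was lower on HFD than on SD, with a log2 difference of -0.49 ± 0.21 (95% interval -0.94 to -0.05), an unadjusted limma p of 0.0311, an adjusted p of 0.998 and an exact permutation p of 0.0571. In mutants it was higher on HFD by 0.32 ± 0.21 (limma, adjusted p = 0.813, exact permutation p = 0.314), and by 0.07 without P357. None of the tested genes was called for diet in either genotype, 0% in mutants and 0% in controls, with 717 and 592 genes at an unadjusted p under 0.05. Groups without overlap made up 3.31% of genes between diets in mutants and 2.61% in controls.

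The interaction, that is the diet difference in mutants minus that in controls, was 0.82 ± 0.30 for *Parm1* (95% interval 0.19 to 1.44), with an unadjusted limma p of 0.0138 and an adjusted p of 0.924. It remained at 0.57 without P357 and at 0.52 without both mice, where its adjusted p was 1. Across all genes 0% were called for the interaction, with 602 at an unadjusted p under 0.05. Over both diets together, *Parm1* differed by -0.05 between genotypes (limma, adjusted p = 0.874), and over both genotypes it differed by -0.09 between diets (adjusted p = 0.944). Background calls in these pooled comparisons were 6.54% for genotype and 0.00697% for diet, which is a single gene.

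*Sphkap* showed its widest difference on HFD. In control mice on SD it was at 35.62 in P356, 42.89 in P358, 41.47 in P359 and 41.41 in P383. Controls on HFD had 30.97 in P385, 28.78 in P390, 31.41 in P391 and 47.72 in P392. Without P392, controls on HFD lay below every other mouse except P357. Mutants on SD had 21.5 in P357, 44.75 in P381, 44.76 in P382 and 44.84 in P384. All but P357 were nearly equal, and P357 had the lowest *Sphkap* of the 16. Mutants on HFD had 62.44 in P339, 48.74 in P341, 46.81 in P387 and 41.54 in P388. Means ran from 49.88 ± 8.908 (SD, n = 4) in mutants on HFD through 40.35 ± 3.224 in controls on SD and 38.96 ± 11.64 in mutants on SD to 34.72 ± 8.74 in controls on HFD. Neighbours in this order overlapped.

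The mean of mutants on HFD was 1.44 times that of controls on HFD. With all mice, the log2 difference was 0.53 ± 0.22 (95% interval 0.07 to 0.99), with an unadjusted limma p of 0.0268, an adjusted p of 0.423 and an exact permutation p of 0.0857. P392 alone reached into the mutant range. Without P392 the difference was 0.69 (limma, adjusted p = 0.0868). Without both P357 and P392 it was again 0.69 and passed (limma, adjusted p = 0.00251); the 4 mutants and 3 controls did not overlap, and the exact permutation p of 0.0286 was the smallest possible. Of all genes, 7.42% passed the same test in these 14 mice, against 0% in the 16. Without P357 alone the difference was 0.53 (limma, adjusted p = 0.168), so that the call depended on leaving out both mice. These mice held the lowest *Sphkap* of the mutants and the highest of the controls. The p-values without them are therefore not independent of that choice.

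**Figure D2:**
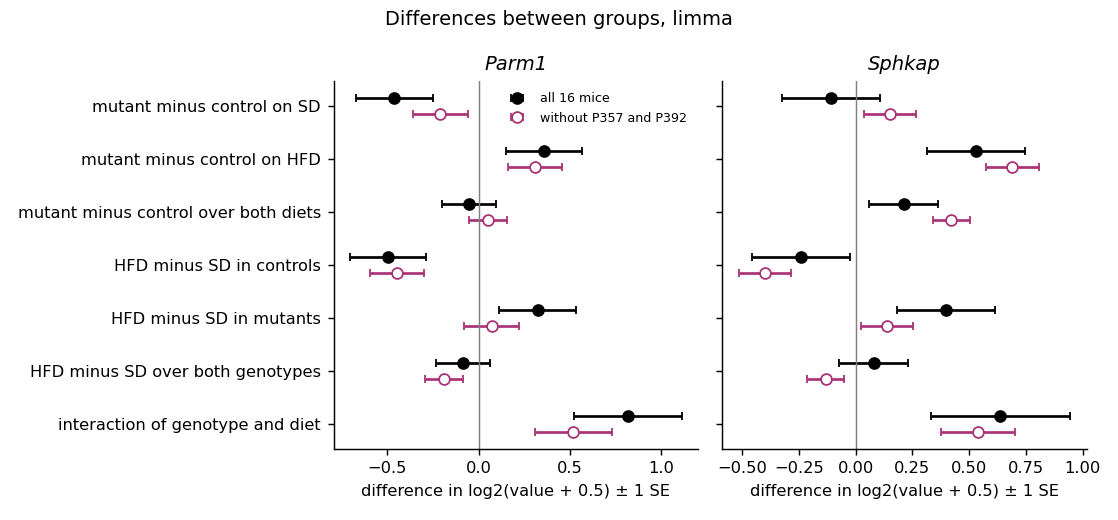
Differences in log2(value + 0.5) for *Parm1* (left) and *Sphkap* (right) in 7 comparisons, from limma fits of all 16 mice (filled) and of the 14 mice without P357 and P392 (open), with bars of 1 SE. On HFD, *Sphkap* is higher in mutants by 0.53 with all mice and by 0.69 without that pair, and its genotype difference on SD changes sign.

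On SD the *Sphkap* means of the genotypes were nearly equal, and the log2 difference was -0.11 ± 0.22 (95% interval -0.57 to 0.35; limma, adjusted p = 0.815; exact permutation p = 1.0). Without P357 it turned to 0.15, since the other mutants, at 44.75 to 44.84, were above all 4 controls, at 35.62 to 42.89. Groups without overlap made up 18.6% of genes in those mice, and the exact permutation p was 0.0571. Over both diets, *Sphkap* was higher in mutants by 0.21 ± 0.15 (limma, adjusted p = 0.45). With P357 and P392 left out this was 0.42 (limma, adjusted p = 0.00297), where 18.6% of all genes were called, and the exact permutation p of 0.000816, with mice permuted within diet, was the smallest possible. Here too the choice of mice was not independent of their *Sphkap* values, so neither p-value is.

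Diet differences in *Sphkap* were -0.24 ± 0.22 in controls and 0.40 ± 0.22 in mutants, with limma adjusted p-values of 0.998 and 0.813. Without P392, *Sphkap* in controls on HFD, at 28.78 to 31.41, no longer overlapped the range on SD, which held for 4.82% of genes, and the difference was -0.40 (limma, adjusted p = 0.732 without both mice). Without P357 the difference in mutants fell to 0.14. The interaction was 0.64 ± 0.31 (95% interval -0.01 to 1.29), with an unadjusted limma p of 0.0543 and an adjusted p of 0.924, and 0.54 without both mice. Over both genotypes the diet difference was 0.08 (adjusted p = 0.95), and its sign was negative without P357 or without P392.

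Animal numbers in the sample titles fell into a lower and an upper range, and mutants on HFD came from both while controls on HFD came from the upper range only. On SD, all controls but P383 were in the lower range and all mutants but P357 in the upper range. The ranges were thus split unevenly in the diet comparisons as well. With the range as a covariate, *Parm1* on SD was at -0.59 (limma, adjusted p = 0.135) and *Sphkap* at -0.21 (adjusted p = 0.62). In the upper range alone, *Parm1* on HFD was 19.91 on average in 2 mutants and 16 in 4 controls, a difference of 0.32, and *Sphkap* was 44.17 and 34.72, a difference of 0.37 (limma, adjusted p = 0.79 for each). Among mutants in that range, *Sphkap* was 44.17 on HFD (n = 2) and 44.79 on SD (n = 3), a difference of -0.02 against 0.40 with all mutants. What the number ranges stand for is not given in the sources used here.

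Levels of *Sphkap* were set beside the lobe markers because P357 and P392 shared low melanotroph and pituicyte levels but had opposite *Sphkap* values, the lowest of its group in P357 and the highest in P392. Marker sums were 1670 and 3480 for the melanotroph list in these mice and 11400 to 42300 in the other 14, and none of its 4 genes was under 1 in every mouse. With the level of both marker lists as a covariate, the HFD difference between genotypes was 0.45 for *Sphkap* (limma, adjusted p = 0.377) and 0.19 for *Parm1* (adjusted p = 0.642). The *Parm1* interaction was then 0.45 (adjusted p = 1) and its diet difference in mutants 0.07. None of the SD calls named in this text, for *Esr1*, *Akap3*, *Prkar2b*, *Pkig*, *Jph4* and *Areg*, passed with that covariate (limma, adjusted p = 0.0544 to 0.103). With it, 55 of the 14345 tested genes were called on SD. All 6 passed without P357 and P392, with limma adjusted p-values of 0.00891 to 0.0419, where 6.7% of all genes were called. The 6 are calls made with all 16 mice, which include the mice refitted here, so this is not a separate test of them. Pan-neuronal markers (*Snap25*, *Rbfox3*, *Tubb3* and *Elavl4*) summed to 228 to 278 in the 16 mice, and groups overlapped.

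**Figure D3:**
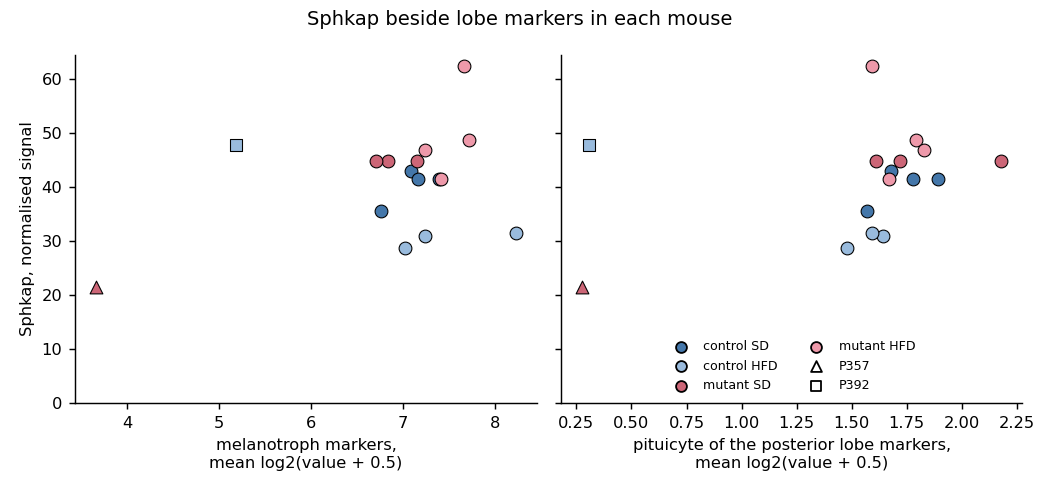
*Sphkap* (normalised signal, vertical axis from 0) against the mean log2(value + 0.5) of melanotroph markers (left) and pituicyte markers (right), 1 point per mouse. P357 (triangle) and P392 (square) sit at the low end of both marker lists, with *Sphkap* at 21.5 and 47.72.

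Levels of *Parm1* and *Sphkap* were related across mice. Over the 16 mice, Pearson's r of their log2 values was 0.657 (permutation p = 0.00784, adjusted over 5 relations 0.0196) and Spearman's rho was 0.406 (permutation p = 0.121). Leaving out P339 and P357, the mice farthest from the median of *Sphkap*, gave r = 0.394. Without P357 alone r was 0.373, without P392 alone 0.749 and without both 0.525. Within genotypes r was 0.401 in controls and 0.9 in mutants, n = 8 each, and within diets it was 0.847 on SD and 0.518 on HFD. Both genes had their lowest value in P357. *Esr1* and *Parm1* gave r = 0.546, which turned to -0.173 without P357 and P358, and *Esr1* and *Sphkap* gave r = 0.327 and -0.268. The mean log2 level of 77 cytosolic ribosomal protein genes, which moves with RNA composition, was related to *Parm1* with r = -0.722 (permutation p = 0.00136, adjusted 0.0068; rho = -0.726) and to *Sphkap* with r = -0.452. Without P357 and P385 these were -0.51 and 0.0491. The part of this level in the group differences was not tested.

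**Figure D4:**
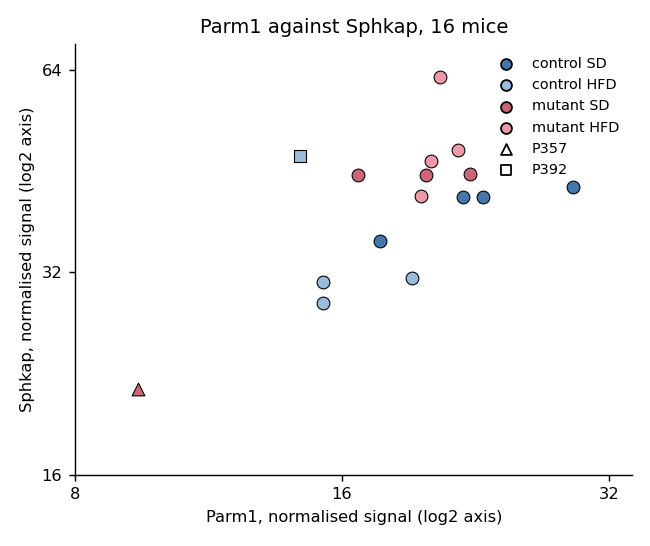
*Sphkap* against *Parm1* in 16 mice, both as normalised signal on log2 axes, coloured by group. P357 (triangle) holds the lowest value of both genes, and r is 0.657 with all mice and 0.525 without P357 and P392.

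Genes whose log2 levels followed *Parm1* most closely over the 16 mice were *Astn1* (r = 0.933), *Mfhas1* (0.93), *Heg1* (0.913), *Sash1* (0.908) and *Calhm2* (0.904). *Rpl36* (-0.92), *Ntan1* (-0.913) and *Ppia* (-0.912) ran most against it. For *Sphkap* the closest were *Jade1* (0.931), *Slc8a1* (0.919), *Trp53inp2* (0.915), *Tspan5* (0.913) and *Sgtb* (0.91), and the most opposed were *Ewsr1* (-0.929), *Dmwd* (-0.913) and *Hnrnpdl* (-0.884). These are descriptions over shared libraries. *Mfhas1*, *Heg1*, *Sash1* and *Calhm2* were again among the 5 closest to *Parm1* without P357 and P392, at 0.871 to 0.893, headed by *Stac2* at 0.913, which was at 0.464 with all mice. For *Sphkap* only *Jade1* stayed among the 5 closest, at 0.913, and *Picalm* headed them at 0.92 after 0.00536 with all mice.

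Among A-kinase anchoring proteins, *Sphkap* ranked 5th of 23 genes in mean level per length. It stood at 41.0 on average, below *Akap8l* (102), the ezrin gene *Ezr* (89.6), *Map2* (71.7) and *Acbd3* (44.2), and just above *Akap8* (40.4). *Acbd3* exceeded it in 11 of 16 mice and it exceeded *Akap8* in 10 of 16, so that these neighbours in the order did not separate beyond their spread. *Akap7*, *Akap9*, *Akap12* and the neuronal *Akap5* averaged 34.6, 25.0, 3.92 and 0.41. *Sphkap* ran from 21.5 to 62.4 between mice.

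**Figure D5:**
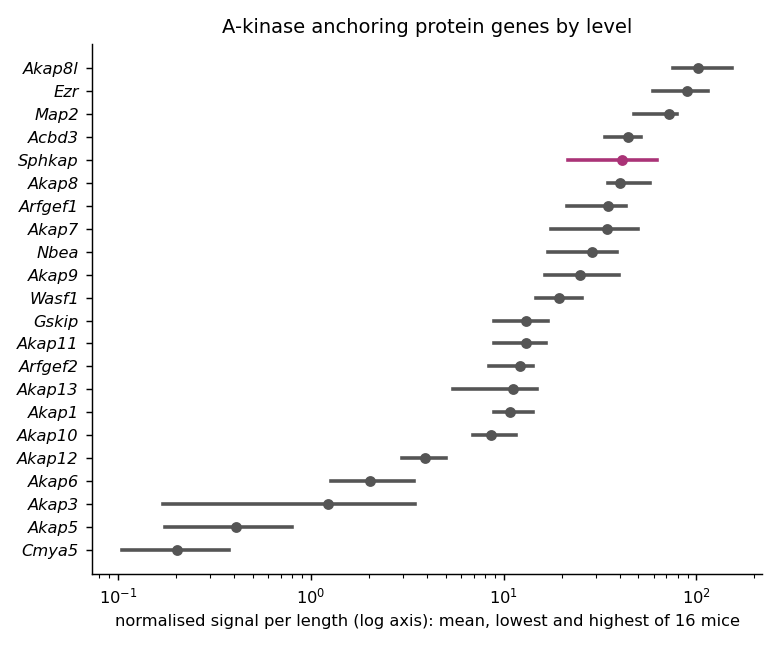
A-kinase anchoring protein genes ordered by normalised signal per length on a log axis, with points for the mean and lines from the lowest to the highest of 16 mice; *Pakap*, at 0 in at least 1 mouse, is not drawn. *Sphkap* (purple) stands at 41.0, 5th from the top, and *Akap3* runs from 0.172 to 3.46.

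Within that list, 1 of 20 tested genes was called higher and 0 lower in mutants on SD, beside 1.84% of all tested genes, and the median log2 difference was -0.06 against -0.01 over all tested genes. The called gene was *Akap3*, a sperm fibrous sheath protein in its best known setting, at 0.376 ± 0.149 in controls and 2.02 ± 0.959 in mutants (log2 difference 1.48 ± 0.30, limma adjusted p = 0.0284). On HFD it averaged 0.52 in controls and 2.01 in mutants. Both control means were under the filter of 1, so *Akap3* was tested only because of its level in mutants. The filter was therefore not independent of this difference. On SD its control mean was also under the pseudocount of 0.5. The call on SD was lost without P358, P359, P383 or any 1 of the 4 mutants on that diet, and the adjusted p then reached up to 0.0892. With the lobe markers as a covariate it was 0.0544. Over both diets, where 6.54% of all tested genes were called, the *Akap3* difference was 1.40 ± 0.21 (limma, adjusted p = 0.0027). It passed in all 16 fits without 1 mouse. *Nbea*, which encodes the anchoring protein neurobeachin of secretory and synaptic traffic, fell over both diets by 0.39 on the log2 scale (limma, adjusted p = 0.031), passing in 8 of those 16 fits, with a highest adjusted p of 0.0717 without P391. On HFD no member of the list and 0% of all tested genes were called, and the median of the list was 0.11. Without P357 and P392, 1 was called higher and 1 lower on SD, where 6.7% of all genes were called. In the same mice 1 was higher on HFD, beside 7.42% of all genes, and over both diets 4 were higher and 3 lower, beside 18.6%.

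Type I regulatory subunits of PKA, the partners of SPHKAP, were abundant and not called. *Prkar1a*, the main type I regulatory subunit, averaged 207 ± 15.9 in controls and 209 ± 36.1 in mutants on SD, and 219 ± 8.37 and 241 ± 8.49 on HFD. *Prkar1b* averaged 98.1 ± 7.71, 100 ± 16.8, 101 ± 8.78 and 117 ± 9.24 in the same order. The catalytic subunit genes *Prkaca* and *Prkacb* averaged 80.5 ± 5.37 and 50.7 ± 3.17 in controls on SD. Of 9 PKA genes tested, 2 fell and 0 rose in mutants on SD, where 1.84% of all tested genes were called, and the median difference was -0.12. Without P357 and P392, 2 again fell on SD, beside 6.7% of all genes, and the median turned to 0.10. On HFD 0 were then called, and over both diets 1 rose and 2 fell, beside 18.6% of all genes.

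*Prkar2b*, a type II regulatory subunit, was at 15.8 ± 4.07 in controls and 8.62 ± 0.817 in mutants on SD, where it fell by 0.81 ± 0.20 on the log2 scale (limma, adjusted p = 0.0475). This passed in 5 of 16 fits without 1 mouse, with an adjusted p of up to 0.152 without P359. It passed in 4 of 9 other settings planned for it (adjusted p up to 0.0597), and was at 0.103 with the lobe markers as a covariate. Over both diets *Prkar2b* fell by 0.61 (adjusted p = 0.0182) and passed in all 16. *Pkig*, a PKA inhibitor, averaged 33.4 ± 3.75 in controls on SD, 30.2 ± 0.194 in mutants on HFD, 23.6 ± 4.04 in controls on HFD and 22.3 ± 2.53 in mutants on SD. It was lower in mutants on SD by 0.57 ± 0.12 (limma, adjusted p = 0.0311, passing in 10 of 16 fits, up to 0.1 without P358, and in 7 of 9 other planned settings). Its interaction of genotype and diet was 0.94 ± 0.17, with an adjusted p of 0.261.

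Enzymes that make or break down cyclic AMP, together with CREB factors, gave 0 calls among 27 tested genes on SD and on HFD. Of all tested genes, 1.84% and 0% were called there. The medians of the list were -0.19 and 0.06. On SD 7 of the 27 had an unadjusted limma p under 0.05, beside 19.9% of all tested genes, and on HFD 4, beside 10.2%. Over both diets 6.54% of all tested genes were called. Among them, *Pde10a*, a phosphodiesterase, rose by 0.48 (limma, adjusted p = 0.0367) and *Pde4a* fell by 0.46 (adjusted p = 0.0485). These calls passed in 6 and 3 of 16 fits without 1 mouse, with adjusted p-values of up to 0.0795 without P341 and 0.108 without P391. In other planned settings they passed in 7 of 8 and 4 of 8. Leaving out P357 and P392, the list gave 1 higher and 1 lower on SD, 1 higher and 2 lower on HFD, and 3 higher and 4 lower over both diets. Those mice had 6.7%, 7.42% and 18.6% of all genes called. *Gnas*, *Adcy6* and *Crem* had the highest levels of the list in controls on SD, at 3190 ± 506, 81.7 ± 9.65 and 72.4 ± 18.4.

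Of the sphingosine 1-phosphate genes, 22 were tested and 0 were called on either diet, beside 1.84% of all tested genes on SD and 0% on HFD. An unadjusted limma p under 0.05 was found for 4 on SD and 0 on HFD, beside 19.9% and 10.2% of all tested genes. In the 14 mice other than P357 and P392, 2 were higher on SD and 2 on HFD, beside 6.7% and 7.42% of all genes, and 4 were higher and 1 lower over both diets, beside 18.6%. *Sphk1*, whose product gave *Sphkap* its name, was barely detected, with group means of 0.317 to 0.818, and was not tested because its mean was under 1. *Sphk2* averaged 23.0 ± 0.609 in controls and 21.6 ± 1.15 in mutants on SD. *S1pr1*, a sphingosine 1-phosphate receptor of endothelial and immune cells, rose over both diets by 0.62 (limma, adjusted p = 0.0402), where 6.54% of all tested genes were called. The call passed in 5 of 16 fits without 1 mouse, with an adjusted p of up to 0.0863 without P341, and in 6 of 7 other planned settings. Endothelial markers summed to 101 to 123 in controls and 154 to 206 in mutants on SD, and to 94.3 to 183 and 149 to 164 on HFD; their part in this result was not tested.

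Proteins of junctions between the endoplasmic reticulum and the plasma membrane gave 1 call higher and 0 lower among 20 tested genes on SD, beside 1.84% of all tested genes, with a median of -0.08. With that pair of mice left out, 2 were higher on each diet, beside 6.7% of all genes on SD and 7.42% on HFD, and 3 over both diets, beside 18.6%. The gene called with all mice was *Jph4*, a junctophilin, at 0.974 ± 0.385 in controls and 2.78 ± 0.891 in mutants (log2 difference 1.15 ± 0.28, limma adjusted p = 0.0476). The call passed in 3 of 16 fits without 1 mouse, with an adjusted p of up to 0.15 without P359, and in 5 of 8 other planned settings. On HFD *Jph4* averaged 0.854 in controls and 2.3 in mutants. Both control means were under the filter of 1, so this gene too was tested only because of its level in mutants. Over both diets *Jph4* rose by 1.13 ± 0.20 (adjusted p = 0.0053) and passed in all 16. VAP partners of SPHKAP were not called. *Vapa* averaged 66.9 ± 17.1 in controls and 94.0 ± 6.11 in mutants on SD and *Vapb* 59.7 ± 3.83 and 44.3 ± 21.9.

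For *Parm1*, the nearest set was that of membrane mucins and sialomucins, of which 14 of 20 were listed and 12 tested. In that set 0 genes were called on SD, on HFD or over both diets. Of all tested genes, 1.84%, 0% and 6.54% were called there. In the set 4, 1 and 5 genes had an unadjusted limma p under 0.05, beside 19.9%, 10.2% and 22.7% of all tested genes. The median log2 difference of the set was 0.32 on SD and 0.32 on HFD, against -0.01 and 0.02 over all tested genes. Above 0 were 10 and 9 of its 12 genes, whereas *Parm1* was at -0.46 and 0.36. Without P357 and P392, 1 rose on SD, beside 6.7% of all genes called. On HFD 4 rose and 1 fell, beside 7.42%, and over both diets 4 rose and 1 fell, beside 18.6%. The list holds endothelial sialomucins such as *Emcn*, *Podxl*, *Cd34* and *Mcam*. *Emcn* is also one of the endothelial markers, whose sums differed between genotypes on SD without overlap. On HFD these sums were 183 in P392, 94.3 to 108 in the other controls and 149 to 164 in mutants. The part of these markers was not tested. *Cd164*, *Podxl2* and *Tmem123* had the highest levels, at 142 ± 5.55, 40.1 ± 5.9 and 29.3 ± 3.78 in controls on SD. Among steroid receptors, 1 of 6 tested genes was called on SD, *Esr1* itself, beside 1.84% of all tested genes. Without P357 and P392, 1 was lower on SD, beside 6.7% of all genes. In those mice 0 were called on HFD, beside 7.42%, and 1 was higher and 1 lower over both diets, beside 18.6%.

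Around the members, 32 protein-coding genes lay within 1000000 bp of *Parm1* and 24 were listed, of which 19 were tested. *Areg*, which encodes the epidermal growth factor ligand amphiregulin, was the only neighbour called on SD, where 1.84% of all tested genes were called. It was at 0.46 ± 0.781 in controls and 5.73 ± 1.42 in mutants, without overlap (log2 difference 2.96 ± 0.59; limma, adjusted p = 0.0264), and this passed in 9 of 16 fits without 1 mouse, with an adjusted p of up to 0.0906 without P359. Groups without overlap made up 10.6% of all tested genes on SD. The *Areg* mean of controls on SD lay under the pseudocount of 0.5. Over both diets the *Areg* difference was 2.34 ± 0.42 (limma, adjusted p = 0.0058) and passed in all 16. *Odaph*, an enamel gene, rose over both diets by 1.56 (adjusted p = 0.0284, in 7 of 16 fits, up to 0.07 without P390), with 1 control on HFD, P392, at 12.3. *Areg* and *Odaph* were the 2 of 19 tested neighbours called over both diets, beside 6.54% of all tested genes. *Parm1* lies between *Areg* and *Odaph* on chromosome 5. Near *Sphkap*, 9 of 24 protein-coding genes were listed and 8 tested. Over both diets the collagen gene *Col4a3* fell by 0.78 (adjusted p = 0.0431) and *Mff*, a mitochondrial fission factor, by 0.23 (adjusted p = 0.0361), each in 6 of 16 fits without 1 mouse, with adjusted p-values of up to 0.101 and 0.0847 without P390. *Mff* passed in 6 of 8 other planned settings. *Col4a3* and *Mff* were the 2 of 8 tested neighbours called over both diets, beside the same 6.54% of all tested genes. Without P357 and P392 the calls of *Odaph*, *Areg*, *Col4a3* and *Mff* over both diets passed, with limma adjusted p-values of 8.89e-06, 0.000814, 0.0212 and 0.0103. In those mice 18.6% of all genes were called over both diets. These neighbours were named for their calls with all 16 mice, so this is not a separate test of them.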

How the data were processed

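RNA from 16 pituitaries had been made into NEBNext Ultra II libraries and sequenced on a NovaSeq. Per the labels and the study's methods, transcript abundances came from kallisto run per gene on mm10, and sleuth was the authors' test. Versions, annotation release and strand setting are not given in the sources used here. What the authors deposited is 1 normalised signal per gene and mouse, not counts, so the planned limma branch was used. GENCODE M21 gave symbols for 17351 of the 17362 genes.

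After a filter at a mean of 1, log2(value + 0.5) was fitted in limma 3.58.1 (R 4.3.3) as group means with a variance trend, and p-values were adjusted by Benjamini-Hochberg at 0.05. The fit was tested on simulated data with known changes. Correlations had 100000 permutations (scipy 1.17.1), and BLAST 2.17.0 searched for shared sequence.

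Named genes were the members, *Esr1*, the 5 most and 3 least alike, called or highest genes of each list, and neighbours within 1000000 bp. *Akap7*, *Akap9*, *Akap12*, *Akap5*, *Prkar1b*, *Sphk1* and *Vapb* were added for their roles, and *Stac2* and *Picalm* after their values were seen. Members and lists were chosen with earlier results of these data known.

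Settings varied were the pseudocount (0.1, 1), the filter (none, 5), scaling by median of ratios or without *Prl* and *Gh*, the variance trend, the mice fitted, the number range as a covariate and each mouse in turn. Others, without P357 and P392, with lobe markers as a covariate and within the upper number range, were added after the values were seen.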

Additional observations from a re-analysis of the deposited data

Results flagged for a closer look

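Of 12 groups searched (*Parm1*, *Sphkap* and *Esr1* in 4 groups each), 3 held a mouse far from the others by Dixon's criterion at 95%, for which chance picks about 1 in 20. *Sphkap* was at 47.72 in P392, a control on HFD, where the other 3 mice lay between 28.78 and 31.41. *Sphkap* was at 21.5 in P357, a mutant on SD, where the other 3 lay between 44.75 and 44.84. *Esr1* was at 10.02 in P357, where the others lay between 20.53 and 22.16. *Parm1* gave no such mouse.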

How the results depend on the processing

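No paired analysis was possible because the labels carry animal numbers and no replicate numbers shared between groups. *Parm1* and *Sphkap* each had 60 results over the comparisons and the planned settings other than leaving out a mouse. All of these kept the direction and the side of the threshold. They share the same mice and are not independent. Rescaling without *Prl* and *Gh* moved the median of all genes on SD to -0.144, and *Sphkap* there was at -0.25 and *Parm1* at -0.60.

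Leaving out both P357 and P392 turned *Sphkap* on SD to 0.1523, *Sphkap* for diet over both genotypes to -0.1314 and *Parm1* for genotype over both diets to 0.0505, and made *Sphkap* pass for genotype on HFD at 0.6909 and over both diets at 0.4216. Both mice were extreme in *Sphkap* itself. In the upper number range *Sphkap* for diet in mutants was -0.0221. With 1 mouse left out, *Sphkap* for genotype on SD ran from -0.1955 to 0.1523, turning without P357. *Parm1* for genotype over both diets ran from -0.1257 to 0.0743, turning without P357 or P358. *Sphkap* for diet over both genotypes ran from -0.0510 to 0.1229, turning without P357 or P392. None of these differences passed in any of those fits.

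Counts of genes called moved more. For genotype on SD, 264 became 151 with a minimum mean of 5, 123 without *Prl* and *Gh* in the scaling, 961 without both mice and 55 with the lobe covariate, and ran from 33 to 826 with 1 mouse left out, lowest without P382 and highest without P356. For genotype on HFD, 0 became 1 with no filter, 1 with no variance trend, 1064 without both mice and 100 with the lobe covariate, and ran from 0 to 653, highest without P392. Over both diets, 938 became 610 with a minimum mean of 5 and 2668 without both mice, and ran from 441 without P390 to 1931 without P392. For diet in mutants, 0 became 2 in the mice compared alone and ran from 0 to 1. For diet in controls, 0 became 1 without *Prl* and *Gh* in the scaling and 1 without both mice, and ran from 0 to 6. The interaction count ran from 0 to 1. For diet over both genotypes, 1 became 0 with median-of-ratios scaling, 0 with no variance trend and 2 with the number range as a covariate, and ran from 0 to 6. The cause of these changes was not tested.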
